A study of Mus musculus with 6 samples.

Results

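The genes that protect chromosome ends and lengthen them were followed here through 10 members, Terf1, Terf2, Tinf2, Pot1a, Pot1b, Acd, Tert, Dkc1, Rtel1 and Rif1. They were found by gene symbol in the expression tables of 6 libraries from mouse embryonic stem (ES) cells, where each symbol named 1 locus, so that the members are 10 of 23244 loci. The 3 control libraries came from ES cells whose Zscan10 gene, a SCAN-domain zinc-finger gene, was flanked by loxP sites but not deleted. The 3 null libraries came from a subcloned Zscan10-null ES cell line. Both groups derive from a study that built an inducible Cre-loxP knockout, and total RNA was depleted of ribosomal RNA before sequencing. A -Tx mark stands in the control titles and not in the null titles. Genotype, any treatment and the founding of a subclone cannot be told apart in this design. Nothing states that the 3 libraries of a group are separate cultures, and p-values therefore describe a spread that may be technical.

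Telomeres are repeats of TTAGGG that end in a single-stranded overhang, and the shelterin complex keeps the repair machinery from treating them as breaks. Terf1 and Terf2 bind the double-stranded repeat, Tinf2 bridges them, and Acd, also called TPP1, tethers the overhang-binding proteins Pot1a and Pot1b. Telomerase adds repeats with its reverse transcriptase Tert, copying the template RNA Terc, which the pseudouridine synthase Dkc1 and its partner proteins stabilise. Rtel1 is a helicase that unwinds telomeric loops and G-quadruplexes, and Rif1 sets the timing of DNA replication and binds telomere-associated proteins. Mouse ES cells divide without limit, keep telomerase active and carry long telomeres.

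Mice have a pair of Pot1 genes where many mammals have 1, and the pair is alike in sequence. Stretches of both are shown first, because they decide whether reads of the paralogs can be told apart. Pot1a lies on chromosome 6 (25743940 to 25809277) and Pot1b on chromosome 17 (55651190 to 55712647, GRCm38, which is mm10). Both reading frames are 1920 bases long, and 78.8% of 1917 aligned bases were identical. The longest identical run was 41 bases. Of all stretches of 60 aligned bases inside 1 exon of each gene, the pair below differed least, at 2 positions, in exon 7 of Pot1a (chr6:25775549-25775608) and exon 6 of Pot1b (chr17:55695051-55695110). Capitals mark the bases that differ, and both genes are read from the minus strand (GENCODE M21 transcripts).
Pot1a: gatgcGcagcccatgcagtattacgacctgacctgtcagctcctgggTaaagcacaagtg
Pot1b: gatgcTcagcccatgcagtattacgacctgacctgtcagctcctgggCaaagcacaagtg
The stretch that differed most, at 21 positions, lies nearby in the same exons (chr6:25775692-25775751 and chr17:55695194-55695253).
Pot1a: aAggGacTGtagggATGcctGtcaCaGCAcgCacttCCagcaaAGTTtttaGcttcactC
Pot1b: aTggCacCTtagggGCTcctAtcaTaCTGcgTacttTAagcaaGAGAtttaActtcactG
No 50-base window of the Pot1a transcript occurred in a transcript of another gene, and of 3474 windows of Pot1b 72 (2.07%) did, none of them in Pot1a. A read of 50 bases or more without mismatches could therefore be assigned to 1 of the paralogs. Read length is not given.

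The files give 1 value per locus and library, taken as FPKM (fragments per kilobase of transcript, scaled by mapped fragments), which allows levels of different genes to be compared per length. The values summed to 685905 to 699401 per control library and to 664555 to 678200 per null library, so that every null sum was below every control sum. Depth, read from the steps of low values, was roughly 7600000 fragments in control replicate 1 and differed little elsewhere (0.986 to 1.09 of it). The targeted gene, Zscan10, rested on 922, 977 and 871 fragments in the control libraries and on 113, 101 and 114 in the null libraries (43.0 ± 1.14 and 5.13 ± 0.607 FPKM, mean ± SD, n = 3 each). Of 8 ES cell identity genes 0 were higher and 2, Esrrb and Zfp42, were lower, and their summed level was 4156 to 4249 FPKM in the controls against 3870 to 4178 in the nulls. The fibroblast (feeder cell) list had 4 of 10 genes in the test, 2 higher (Vim and Thy1) and 2 lower (Acta2 and Tagln). This was 100% called, beside 25.2% of all tested loci. The sum of the list, 122 to 128 FPKM in the controls against 165 to 222 in the nulls, followed Vim, at 108 and 189 on average. Tagln, at 8.80 and 4.86, and Acta2, at 3.93 and 1.73, were lower in null libraries. The untested collagen genes Col1a1, at 0.738 and 0.0861, and Col1a2, at 1.13 and 0.0776, were also lower in value without overlap. Col3a1, untested as well, was at 0.363 and 0.395, and its groups overlapped. Lum and Dcn were at most 0.151 FPKM in any library. The primitive endoderm list had 4 of 9 genes in the test, 0 higher and 2 lower, and summed to 46.5 to 51.2 FPKM in control and 25.4 to 30.8 in null libraries. The lower genes were the matrix genes Lamb1, at 21.3 and 10.8 on average, and Col4a1, at 21.7 and 12.4. Gata4, at 1.65 and 1.8, and Dab2, at 2.10 and 1.18, did not pass, and the other 5 genes of the list were at most 1.06 FPKM in any library. The part of other cell types in the results below was not tested.

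Among the 10 telomere genes, 1 rose and 1 fell in the null libraries. Rif1 was higher by 1.17-fold and Tert, the catalytic subunit of telomerase, was lower, at 73.0% of the control level. None of the 6 shelterin members passed the test. These 2 calls of 10 stood beside 25.2% of all 11480 tested loci called at an adjusted p of 0.05 by limma (12.8% higher and 12.4% lower), so the members' share lay near that background. When libraries were rescaled to the same total, or centred on their medians, 3 members were called: Rif1, Terf1 and Dkc1, all higher, while Tert missed the threshold. In bulk RNA, fewer cells that express a gene and less of its RNA per cell cannot be told apart. The groups did not overlap for 5 members (Terf1, Pot1a, Tert, Dkc1 and Rif1), against 44.1% of all tested loci (21.6% higher in null and 22.5% lower). The median log2 fold change of the members was 0.06, and that of all tested loci was -0.003. All 10 members passed the minimum mean of 1 FPKM.

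**Figure D1:**
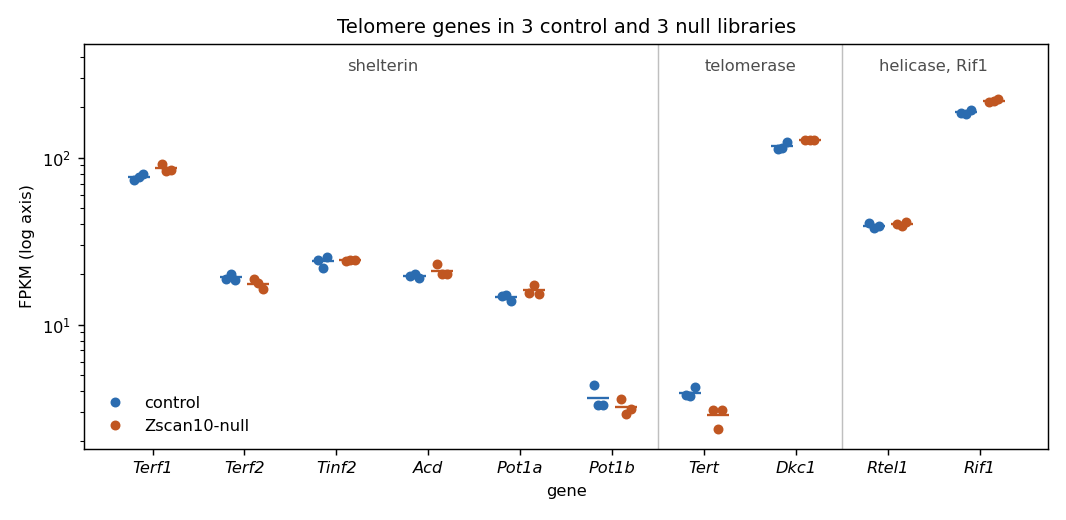
Each point is the FPKM of 1 gene in 1 library on a log axis, blue for the 3 control and orange for the 3 Zscan10-null libraries, with bars at the group means. The genes span from about 3 FPKM for Tert and Pot1b to 183 and more for Rif1, and the groups lie close together for each gene.

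Levels differed far more between the genes than between the groups. In control libraries the order by mean FPKM was Rif1 at 187, Dkc1 at 116, Terf1 at 76.8, Rtel1 at 39.2, Tinf2 at 23.9, Acd at 19.6, Terf2 at 19.2, Pot1a at 14.6, Tert at 3.91 and Pot1b at 3.65. Neighbours in this order had separate ranges, except for Acd with Terf2 and Tert with Pot1b. In null libraries the order was the same except that Pot1b, at 3.20, stood above Tert, at 2.85. There the ranges overlapped for Terf2 with Pot1a and for Pot1b with Tert. Among all tested loci, 95.8% had a lower control mean than Rif1, 93.3% a lower one than Dkc1, 22.3% a lower one than Tert and 21.0% a lower one than Pot1b.

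Of the shelterin genes, Terf1 (TRF1, chr1:15805546-15844052) was the most abundant. It was at 73.3, 76.9 and 80.2 FPKM in the controls against 92.2, 83.1 and 84.2 in the nulls. Every null library was above every control library. The log2 fold change was 0.17 (SE 0.054, limma, 95% interval 0.04 to 0.29), which did not pass after adjustment (adjusted p = 0.0561). Permuting the 6 values over the groups (exact, two-sided) gave p = 0.1, and 3 against 3 cannot go lower. The call depended on how libraries were scaled: with libraries rescaled to the same total the limma adjusted p was 0.024, and with median centring 0.0423. Rescaling moved the split of all called loci from 50.7% to 62.7% higher, and the median log2 fold change of all loci from -0.003 to 0.034.

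Terf2 (chr8:107069400-107096548), the other protein that binds the double-stranded repeat and the one that shapes the protective loop, went the other way in value. It was at 18.8, 20.1 and 18.6 FPKM in the controls against 18.7, 17.7 and 16.3 in the nulls. These ranges overlapped, and the log2 fold change of -0.12 (SE 0.063, limma adjusted p = 0.191) did not pass. Within a library the ratio of Terf1 to Terf2 does not depend on how libraries are scaled to each other. It was 3.90, 3.82 and 4.31 in control and 4.94, 4.71 and 5.17 in null libraries. All 3 null ratios were above all 3 control ratios, with means of 4.01 ± 0.266 and 4.94 ± 0.231 (SD, n = 3). Terf1 made up 48.7% ± 1.39 of the summed FPKM of the 6 shelterin members in the controls against 51.3% ± 0.985 in the nulls.

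Tinf2 (TIN2, chr14:55676208-55682159), which joins Terf1 and Terf2, was nearly level between the groups. Its values were 24.5, 21.7 and 25.4 FPKM in control and 23.9, 24.5 and 24.3 in null libraries. The null libraries lay inside the range of the control libraries, and the log2 fold change was 0.02 (95% interval -0.12 to 0.17, limma adjusted p = 0.81). In the GENCODE M21 annotation 1540 exonic bases of Tinf2 overlap Gmpr2 on the opposite strand, and no source says whether counting used strand. Gmpr2 itself was at 9.84 ± 0.831 FPKM in the controls against 7.85 ± 0.561 in the nulls, so the Tinf2 value is uncertain to that extent.

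Acd (chr8:105698155-105701228), the tether of the Pot1 proteins and the contact point that brings telomerase to the chromosome end, was at 19.6, 20.2 and 19.1 FPKM in the controls against 22.9, 20.1 and 20.1 in the nulls. Only null replicate 1 stood above all control libraries, and the log2 fold change of 0.09 (SE 0.063, limma adjusted p = 0.314) did not pass. Acd shares 1208 exonic bases with the oppositely oriented gene Carmil2, listed in the files as Rltpr, which was at 1.83 FPKM in both groups.

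Of the Pot1 paralogs, Pot1a was the more abundant in every library, and neither gene passed the test. Pot1a was at 14.8, 15 and 13.9 FPKM in the controls against 15.5, 17.2 and 15.3 in the nulls. The null libraries were above the control libraries without overlap, but the log2 fold change of 0.13 (SE 0.061) did not pass (limma adjusted p = 0.168). Pot1b, which limits trimming of the strand opposite the overhang, was at 4.36, 3.30 and 3.28 FPKM in the controls against 3.58, 2.89 and 3.13 in the nulls. Those groups overlapped (log2 fold change -0.14, SE 0.115, limma adjusted p = 0.401). Pot1b therefore accounted for 22.8%, 18.1% and 19.1% of the summed Pot1a and Pot1b FPKM in control and for 18.8%, 14.4% and 17.0% in null libraries, and these shares overlapped. Where a locus has 1 transcript, its values step by whole fragments, and the smallest whole numbers that fit are given. The Pot1b values rest on 120, 99 and 90 fragments in the controls against 97, 87 and 86 in the nulls. Its ratio of null to control per unit of depth was 0.876, with an exact interval of 0.741 to 1.03 that covers counting error only.

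Terf2ip, known as RAP1, is the shelterin protein outside the 10 members and is carried to telomeres by Terf2. It was at 6.49, 5.47 and 5.70 FPKM in the controls against 5.22, 4.94 and 5.76 in the nulls, with overlap. With it, 0 of 7 shelterin genes were called in either direction by limma, beside 25.2% of all tested loci. Of the 7, 1 (Terf1) had an unadjusted limma p under 0.05, at 0.015. Of the 7 log2 fold changes 4 were above 0 and 3 below, with a median of 0.02.

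**Figure D2:**
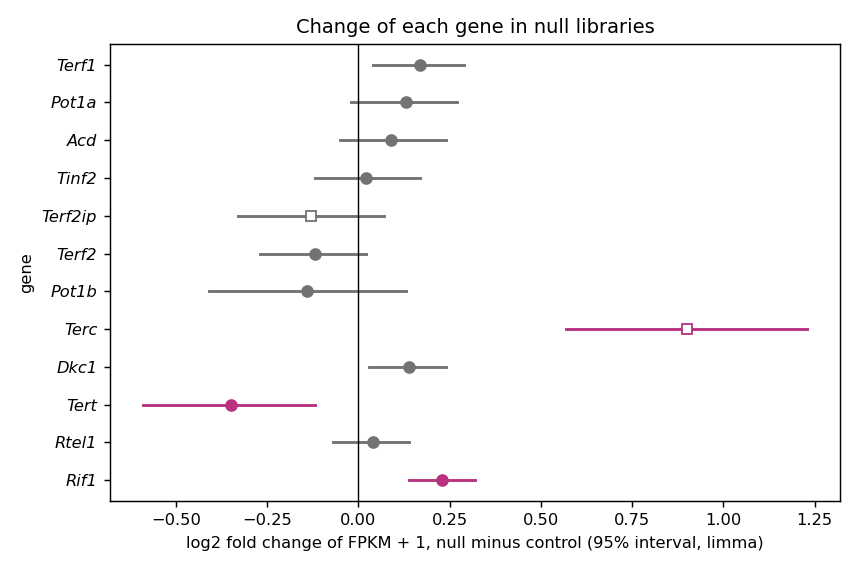
Points are log2 fold changes of FPKM + 1 (null minus control) with 95% intervals from limma, filled circles for the 10 members and open squares for Terf2ip and the telomerase RNA Terc, purple where the adjusted p was below 0.05. Terc at 0.90 and Tert at -0.35 lie on opposite sides of 0, and the 7 shelterin genes lie between -0.14 and 0.17.

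Of the telomerase components, the reverse transcriptase fell and the template RNA rose. Tert (chr13:73626911-73649843) fell from 3.79, 3.72 and 4.22 FPKM in control to 3.09, 2.38 and 3.09 in null libraries. All null libraries were below all control libraries. The log2 fold change was -0.35 (SE 0.102, limma adjusted p = 0.0408, exact permutation p = 0.1). These values correspond to 102, 109 and 113 fragments in the controls against 82, 70 and 83 in the nulls, and the ratio of null to control per unit of depth was 0.727 (exact interval 0.612 to 0.863, counting error only). The spread between libraries, a coefficient of variation of 6.89% in the controls against 14.4% in the nulls, was close to what counting so few fragments gives, 9.63% and 11.3%. The call was a narrow one. It was lost under 10 of 14 alternative settings, with adjusted p-values from 0.0356 to 0.12 over all 14, while the log2 fold change stayed between -0.46 and -0.26. Leaving out any library other than null replicate 1 ended it, with limma adjusted p-values of 0.0875, 0.0837 and 0.12 without control replicates 1, 2 and 3, and of 0.0888 and 0.0593 without null replicates 2 and 3. Rescaling to the same total (0.0559), median centring (0.0525), quantile normalization (0.0831) and testing without a minimum (0.0775) ended it too.

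Dkc1 (chrX:75095854-75109776), which encodes dyskerin, was at 112, 114 and 124 FPKM in the controls against 128, 128 and 128 in the nulls. The groups did not overlap, with control replicate 3 nearest to the null libraries. The log2 fold change of 0.14 (SE 0.044) did not pass (limma adjusted p = 0.0576), but it did with libraries rescaled to the same total (0.0311), with median centring (0.0359) and without control replicate 3 (0.0222). Dkc1 shares 45 exonic bases with Mpp1 on the other strand, which was at 13.4 FPKM in the controls against 16.3 in the nulls. The ratio of Dkc1 to Tert within a library was 29.6, 30.6 and 29.3 in control and 41.5, 53.6 and 41.5 in null libraries. Null replicate 2, with the lowest Tert value, had the highest ratio. Each of the genes alone was apart between the groups, in opposite directions, so their ratio had to be apart too.

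The sequences just before the start sites of the telomerase members are shown because Tert was the member that fell, and Dkc1 is its partner in the particle. Each is the 250 bases before the RefSeq start (GRCm38.p6, plus strand), for Tert chr13:73626661-73626910 and for Dkc1 chrX:75095604-75095853, with capitals on any GC box (GGGCGG, either strand) or E-box (CACGTG).
Tert: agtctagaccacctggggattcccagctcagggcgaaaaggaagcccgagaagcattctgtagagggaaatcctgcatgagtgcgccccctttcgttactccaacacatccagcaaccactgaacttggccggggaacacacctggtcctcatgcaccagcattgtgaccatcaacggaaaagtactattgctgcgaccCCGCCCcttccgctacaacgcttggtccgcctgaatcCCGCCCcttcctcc
Dkc1: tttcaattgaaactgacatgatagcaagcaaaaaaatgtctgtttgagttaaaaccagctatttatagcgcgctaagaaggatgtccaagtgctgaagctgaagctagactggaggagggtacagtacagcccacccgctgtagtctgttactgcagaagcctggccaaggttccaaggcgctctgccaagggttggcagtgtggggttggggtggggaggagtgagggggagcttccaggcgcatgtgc
Tert had 2 GC boxes, ending 45 and 8 bases before the start, and Dkc1 had 0, while 32.7% of 32851 mouse promoter windows of this length held at least 1. Of the other members with an entry, Pot1a, Pot1b and Rtel1 held a GC box and Terf2, Tinf2 and Acd did not. None of these was called. Neither window held CACGTG, which 6.02% of all windows did. GC content was 57.2% for Tert and 52.0% for Dkc1. A match or its absence describes these letters only.

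The telomerase RNA, Terc, is no member but is the template that Tert copies. Terc rose from 350, 297 and 249 FPKM in control to 469, 617 and 583 in null libraries. Every null library was above every control library, the ratio of means was 1.86, and the log2 fold change was 0.90 (SE 0.140, limma adjusted p = 0.00445). Its values correspond to 1100, 1016 and 778 fragments in the controls against 1454, 2118 and 1830 in the nulls. The spread between control libraries was 17.0%, well beyond the 3.26% of counting error. Terc is a short RNA, and FPKM of short RNAs is sensitive to how a fragment's length is accounted for. Its call was kept in all 15 alternatives run. The RNA component and the reverse transcriptase thus stood on opposite sides of their control levels in each of the 3 null libraries.

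Set against each other, shelterin and telomerase did not separate the groups. The mean log2(FPKM + 1) of the 6 shelterin members minus that of Tert and Dkc1 was -0.21, -0.26 and -0.39 in control and -0.14, -0.08 and -0.25 in null libraries, so that null replicate 3 lay within the control range. The group means were -0.29 ± 0.09 and -0.15 ± 0.09 (SD, n = 3), a difference of 0.13. The shelterin mean differed by 0.02 between the groups and the telomerase mean by -0.11. Of the telomerase pair, Tert was lower and Dkc1 higher in value in the null libraries. No test was made of this score because the genes were chosen.

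**Figure D3:**
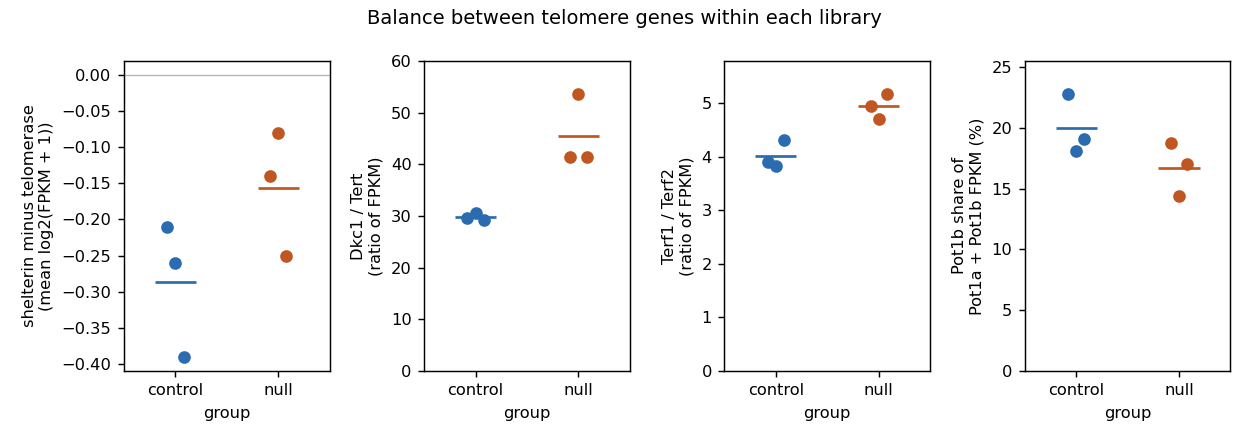
Each point is 1 library, with bars at the group means: the shelterin minus telomerase score on the log2 scale, the ratios of Dkc1 to Tert and of Terf1 to Terf2, and the percent of Pot1a plus Pot1b FPKM that is Pot1b. The groups are apart for both ratios (at most 30.6 against at least 41.5, and at most 4.31 against at least 4.71) and overlap for the score and the Pot1b share. For Dkc1 and Tert this follows from the single genes, which were each apart in opposite directions.

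Rtel1 (chr2:181319711-181356616) was at 40.8, 37.7 and 38.9 FPKM in the controls against 40.0, 39.2 and 41.3 in the nulls. The groups overlapped and the log2 fold change was 0.04 (95% interval -0.07 to 0.14, limma adjusted p = 0.581), so that an increase beyond 0.14 or a fall beyond 0.07 on this scale lies outside the interval.

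Rif1 (chr2:52072815-52126769), the most abundant of the 10 genes, rose from 185, 183 and 194 FPKM in control to 215, 218 and 226 in null libraries. The groups were well apart, with means of 187 ± 5.99 and 220 ± 5.41 (SD, n = 3). The log2 fold change was 0.23 (SE 0.038, limma adjusted p = 0.00566), and it passed in all 15 alternatives run, with adjusted p-values from 0.004 to 0.0369. Quantile normalization gave the smallest change, 0.14. Of 10509 named protein-coding loci, the 5 whose 6 library values followed Rif1 most closely, as log2 differences from the control mean, were Setd2, a histone methyltransferase, Zfr, Pa2g4, Prkab2 and Dbf4, a regulator of replication origin firing. Their root-mean-square differences from Rif1 were 0.016 to 0.022. Of the 10509 loci 188 lay within 0.05, so this pattern was not particular to Rif1.

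The wider telomere pathway was read from lists that include the members. In the list of telomerase and its assembly factors 5 of 19 genes rose and 2 fell (36.8% called, beside 25.2% of all tested loci), with a median log2 fold change of 0.04. Besides Terc, those that rose were Nop10, a protein partner of Dkc1, from 210 ± 5.39 to 258 ± 7.79 FPKM (limma adjusted p = 0.00221), the paired AAA+ ATPases Ruvbl1, from 103 to 117, and Ruvbl2, from 138 to 154, and the chaperone Hsp90aa1, from 2819 to 3172. Besides Tert, the one that fell was Parn, a deadenylase that trims the end of Terc, from 15.3 ± 0.591 to 11.8 ± 0.506 FPKM (limma adjusted p = 0.00515). The calls of Nop10 and Parn were kept in all 15 alternatives, and those of Ruvbl1, Ruvbl2 and Hsp90aa1 were lost in 6, 6 and 7 of them. The 7 calls of the list became 3 without control replicate 1 or null replicate 3 and 4 without control replicate 2. Of the other proteins of the particle and its assembly, Gar1, Nhp2, Naf1 and Wrap53 did not pass, with limma adjusted p-values of 0.993, 0.25, 0.665 and 0.744.

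In the list of the CST complex, which fills in the strand opposite the overhang, and of telomere end replication, 6 of 20 genes rose and 1 fell (35.0% called, beside 25.2% of all tested loci, median 0.07). The primase subunit Prim1 rose from 64.8 to 78.1 FPKM (limma adjusted p = 0.00405), the nuclease and helicase Dna2 from 15.6 to 19.6 (0.012), the flap endonuclease Fen1 from 47.7 to 54.7 (0.0181) and the Werner helicase Wrn from 6.32 to 7.85 (0.0258). Rif1 and Exo1 were the others. Ctc1, the large CST subunit, fell from 34.3, 33.7 and 34.2 FPKM to 30.3, 30.2 and 31.9 (limma adjusted p = 0.0428). The groups did not overlap for Ctc1, but its call was lost in 10 of 15 alternatives, and those of Fen1 and Wrn in 3 and 6, while Prim1 and Dna2 lost none. The 7 calls became 3 without control replicate 1, control replicate 3 or null replicate 2, and 4 without control replicate 2. The other CST subunits, Obfc1 (Stn1) and Ten1, did not pass (0.504 and 0.0726). Many of these genes act in general DNA replication, and in the proliferation list 9 of 16 genes rose and 1 fell (62.5% called, beside 25.2% of all tested loci). Its summed level was 2119 to 2134 FPKM in the controls against 2326 to 2360 in the nulls. Mcm3 rose from 190 to 235 FPKM, Cdc6 from 19.2 to 24.8 and Rrm2 from 107 to 143. Aurkb was the gene that fell, from 37.6 to 32.8 FPKM (limma adjusted p = 0.0279). Mki67, Top2a, Ccnb1, Ccna2, Plk1 and Mcm5 did not pass. The part of proliferation in the rises of the end replication list was not tested.

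Of the telomere-associated regulators 3 of 20 tested rose and 2 fell (median -0.06), a share near the 25.2% called among all tested loci. Orc1, the origin recognition subunit that also binds telomeric RNA, rose from 37.6 ± 0.830 to 53.8 ± 1.42 FPKM (limma adjusted p = 0.000459), and Sun1, which anchors meiotic telomeres to the nuclear envelope, from 46.0 to 58.3 (0.00392). Hnrnpa1, which rose from 768 to 837, has many near-identical copies in the genome and its value is uncertain. Zfp827 fell from 3.87 to 2.74 FPKM (0.0162) and Tnks1bp1, named for its binding to tankyrase, from 9.19 to 7.29 (0.039). The calls of Orc1 and Sun1 were kept in all 15 alternatives, while those of Hnrnpa1 and Tnks1bp1 were lost in 9 each and that of Zfp827 in 3. The 5 calls became 2 or 3 without any 1 library other than null replicate 1. The tankyrases Tnks and Tnks2, which release Terf1 from telomeres in human cells, did not pass (0.398 and 0.195).

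In the list of telomere recombination and chromatin 3 of 24 genes rose and 3 fell (median 0.05), again a share near the 25.2% of all tested loci. Atrx, the chromatin remodeller whose loss permits telomerase-independent lengthening in tumours, rose from 50.1, 51.5 and 55.4 FPKM to 71.4, 77.2 and 77.4 (limma adjusted p = 0.00105). Its partner Daxx was at 30.9 ± 1.82 FPKM in the controls against 33.8 ± 1.02 in the nulls and did not pass (0.131). The histone variant gene H3f3b, whose product that pair deposits at telomeres, fell from 360 ± 6.22 to 275 ± 0.924 FPKM (0.000449). H3f3a, which encodes the same protein, was at 547 ± 6.33 and 524 ± 18.2 FPKM and did not pass (0.246). The DNA methyltransferase Dnmt3b rose from 79.4 to 116 FPKM (0.000857) and the heterochromatin protein gene Cbx5 from 83.8 to 96.7 (0.0107). The break-repair gene Rad50 fell from 22.6 to 18.9 FPKM (0.0138). The calls of Atrx, H3f3b, Dnmt3b, Cbx5 and Rad50 were kept in all 15 alternatives.

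**Figure D4:**
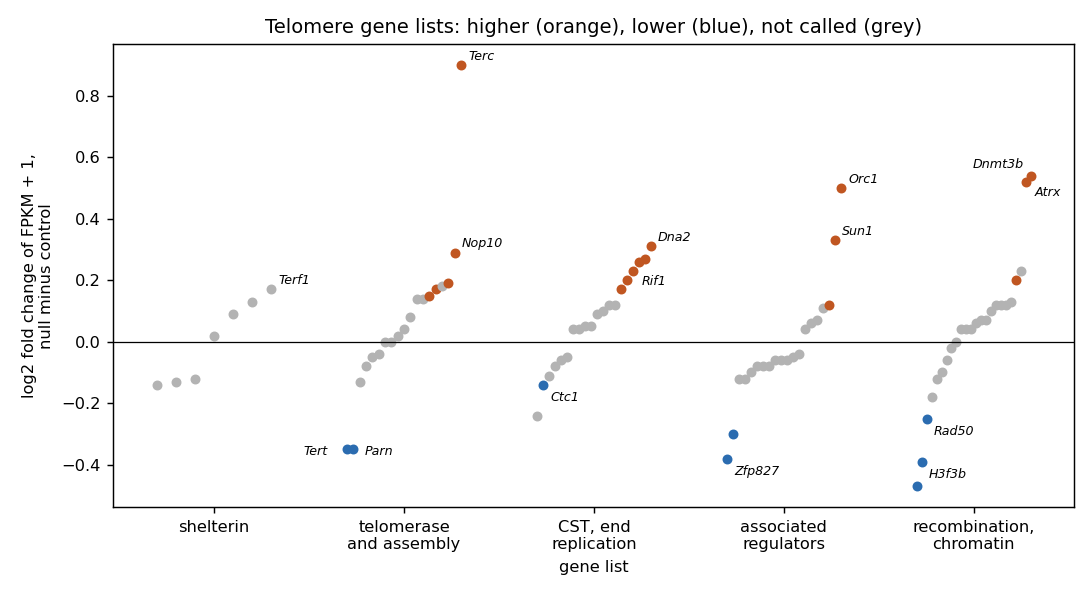
Each point is 1 gene of 5 telomere gene lists, placed by its log2 fold change of FPKM + 1 (null minus control), orange where higher, blue where lower and grey where the adjusted p was 0.05 or more. Terc stands apart at 0.90, and the shelterin genes are all grey with values scaled as deposited (Terf1 was called under other scalings).

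Across these lists without the members, 23 of 80 genes were called, or 28.7% beside 25.2% of all tested loci. Of the 23, 16 rose and 7 fell, and the median log2 fold change was 0.04. The 2-cell-like list holds the Zscan4 genes, known for promoting telomere recombination in ES cells. Of its 15 tested genes 13 were higher and 0 lower (86.7% called). Among the 13, Usp17ld (0.599 FPKM in the controls and 1.48 in the nulls) and Tdpoz3 (0.831 and 3.28) reached the minimum only through the null libraries. The summed level of the list was 63.3 to 66.1 FPKM in the controls against 124 to 172 in the nulls. Zscan4c rose from 11.5 ± 0.0826 to 24.8 ± 1.95 FPKM (limma adjusted p = 0.00014), Zscan4b from 1.93 to 3.84 and Usp17la from 1.56 to 5.99. Zscan4 copies are nearly identical and can share reads, so their single values are uncertain and their calls cannot be counted as separate ones.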

How the data were processed

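RNA from 3 control and 3 Zscan10-null ES cell libraries was analysed from 1 deposited table per library. Tools named in the submitters' processing notes are Trim Galore, FastQC, TopHat and Cuffdiff, with the build mm10; no version or role is given. The unit is not stated. The deposited values were taken as FPKM made by the authors, since they are not whole and fall on steps.

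Loci holding a member's symbol were taken and placed on GRCm38.p6 by RefSeq accession. limma 3.58.1 in R 4.3.3 (mean-variance trend) was run on log2(FPKM + 1) for the 11480 loci whose mean reached 1 FPKM, with Benjamini-Hochberg adjustment at 0.05. Fold changes on this scale understate changes of low genes. Ratios are of group means without a pseudocount, and intervals are 95%. The fit was tested on simulated data. Fragments behind a value were recovered for single-transcript loci as the largest step that made all 6 values whole within 0.02 of a fragment; the true number may be a multiple of it. This gave fragments for 7 of the members, not for Terf2 and Rtel1 (several transcripts) or Rif1 (too many). Intervals of fragment ratios are exact binomial and cover counting error only.

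The members and gene lists were chosen with earlier results of these data known. Named were the members, Zscan10, Terf2ip, Terc, Ctc1, Atrx, Daxx, up to 6 called genes per telomere list, up to 3 called genes per marker list (or the 2 of highest FPKM), and the 5 loci most like the member of smallest p. One gene that this rule takes is not reported here. Exo1, Obfc1, Ten1, Gar1, Nhp2, Naf1, Wrap53, H3f3a, the tankyrases, Lum, Dcn, Tagln, Col1a1, Col1a2, Gata4, Dab2 and the overlapping genes were named after their values were seen. The same holds for Aurkb, Mki67, Top2a, Ccnb1, Ccna2, Plk1, Mcm5, Usp17ld, Tdpoz3 and Col3a1. The ratios and shares between members were not among the planned results. Promoters came from RefSeq (GRCm38.p6); 8 of the 10 members had an entry, Terf1 and Rif1 not. Alternatives changed the pseudocount, minimum, scaling, trend, replicate block and each library in turn, 15 in all.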

Additional observations from a re-analysis of the deposited data

How the results depend on the processing

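Between 1 and 3 of the 10 members were called in the alternatives. The count was 1 without a minimum, with a minimum of 5 FPKM (where Tert and Pot1b were not tested and the shelterin and telomerase score could not be computed), with quantile normalization and with a replicate block, and it ranged from 1 to 2 when 1 library was left out. Rif1 was called in all of them. Tinf2 changed sign, to -0.04, without control replicate 2 (-0.04 to 0.07 when 1 library was left out); no other member did. The null minus control difference of the shelterin minus telomerase score stayed positive, at 0.08 to 0.18. Loci called over the whole table ranged from 1719 to 2914 when 1 library was left out, the lowest counts being 1776 and 1719 without control replicates 1 and 2.

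The shelterin list had 1 call, Terf1, after rescaling to the same total and 1 after median centring. Without a minimum, 3 telomere-associated regulators were called. With a minimum of 5 FPKM 6 genes of the 2-cell-like and 2 of the fibroblast list were called. These were all the genes of the lists that reached that minimum. The others, such as Zscan4b, Usp17la, Thy1 and Acta2, were not tested there. Without a trend 4 genes of the telomerase list were called. When 1 library was left out, calls ranged from 3 to 7 in the telomerase list, 3 to 6 in the CST list, 2 to 5 among the regulators, 1 to 4 among the ES cell genes and 2 to 3 in the fibroblast list. Apart from genes that fell below the minimum of 5 FPKM, the cause of these shifts was not tested.

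The replicate numbers did not pair the libraries: same-numbered libraries deviated from their group means with correlations across genes of -0.002, 0.108 and 0.053, and control replicate 3 correlated best with null replicate 1, at 0.163. With the replicate block Tert missed the threshold (limma adjusted p = 0.0515), 2264 loci were called, and 4, 4, 1 and 2 genes of the telomerase, CST, ES cell and fibroblast lists. Depth limits Tert and Pot1b, which rest on 70 to 120 fragments per library.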
